A study of Mus musculus with 24 samples.

Results

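Zfp951 (ENSMUSG00000072774.3), a zinc finger protein gene on chromosome 5, and Usp26 (ENSMUSG00000055780.4), a ubiquitin-specific protease gene on the X chromosome, were followed across mouse embryonic stem (ES) cells of 6 genotypes, profiled by RNA sequencing. They are 2 of the 37310 gene entries measured, and both passed the filter on low values in both expression tables. They were selected on their measured level in Dux KO cells, as genes of the 2-cell embryo that keep expression without Dux, so those levels are given below as a description, with no test. The picture was not the same for the 2 genes. Reads of both were found in every Dux KO sample, but the Usp26 mean there was 15.6% of the wild-type mean, and Zfp951 ranged over 38.7-fold between Dux KO samples.

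The genotypes were wild type (WT), knockout of Smchd1 (Smchd1 KO), knockout of Dux (Dux KO), knockout of Smchd1 and Dux together (Double KO), a line called Tet TKO that lacks Tet1 to Tet3, and that triple knockout with Smchd1 removed as well (quad KO). No gene was knocked out in WT, and the 3 Tet genes were intact by label in the first 4 genotypes. Each genotype had 3 biological samples, grown without feeder cells in serum with LIF, and total RNA was depleted of ribosomal RNA before sequencing. The labels used here do not say which parental line or how many clones a genotype comes from.

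DUX, a homeobox transcription factor, turns on a set of genes when the embryonic genome is first activated at the 2-cell stage, and a small share of cultured ES cells pass through a state in which that set is on. SMCHD1 is a chromatin protein that helps to silence X-linked genes and clustered or imprinted autosomal genes, and TET enzymes oxidise 5-methylcytosine, an early step in removing DNA methylation. Proteases of the USP family cleave ubiquitin from other proteins. Usp26 is known for its expression in the testis, as are many single-copy and clustered germ-cell genes of the X chromosome.

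The sequence just before each start site is shown because a shared stretch is what the 2 promoters have in common and the expression rule did not use it. Both were read from RefSeq for GRCm38.p6, each on the minus strand, 5′ to 3′, as the 250 bases before the annotated start. For Zfp951 the first listed of 2 start sites was taken. The capitals mark the longest run of letters found in both, a comparison made after the sequences had been seen.
Zfp951, chr5:104860028-104860277: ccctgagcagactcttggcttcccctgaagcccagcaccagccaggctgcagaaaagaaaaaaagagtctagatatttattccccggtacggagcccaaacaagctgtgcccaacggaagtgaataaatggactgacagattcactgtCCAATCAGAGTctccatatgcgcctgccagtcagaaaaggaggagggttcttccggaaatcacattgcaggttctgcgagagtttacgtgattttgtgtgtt
Usp26, chrX:51801234-51801483: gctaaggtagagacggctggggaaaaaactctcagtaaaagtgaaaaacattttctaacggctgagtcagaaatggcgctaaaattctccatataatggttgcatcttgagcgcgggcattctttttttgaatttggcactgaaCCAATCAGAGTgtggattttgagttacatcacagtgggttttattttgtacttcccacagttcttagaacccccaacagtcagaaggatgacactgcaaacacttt
The run of 11 bases began 102 bases before the start of Zfp951 and 106 bases before that of Usp26. It opens with CCAAT, the core of a common promoter element, which alone lay in 37.4% of 32851 RefSeq windows, and the whole run lay in 0.100% of them. That share does not measure how often 2 promoters have some run of this length in common, since the run was chosen from these sequences. How often that happens was not tested. Both strands were searched, and each window held 300 bases, the 250 before the start and 50 past it. The 300-base Zfp951 window held 8 CG dinucleotides, 7 of them in the printed stretch, and the Usp26 window 5. Of all windows, 54.2% held at most 8 and 43.6% at most 5.

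Levels are in counts per 1000000 gene reads (CPM) as the authors scaled them. Tet TKO and quad KO were deposited in a table apart from the other 4 genotypes, and each table was scaled on its own, so tests stay within a table. Gene reads per library ran from 11.4 to 74.4, in units of 1000000. Smchd1 transcripts lay between 203 and 207 CPM in WT samples, and at 46.2 to 76.5 CPM in Smchd1 KO and 71.0 to 87.9 CPM in Double KO. In the other table they lay at 151 to 161 CPM in Tet TKO samples and at 12.2 to 40.02 CPM in quad KO. Dux itself was at or below 0.847 CPM in every sample and had no reads in 2 of the 3 Dux KO samples. The first Dux KO sample, the one with the most Zfp951 in that genotype, had 0.447 CPM of Dux, above every WT sample (0.0410 to 0.141 CPM). The second Double KO sample, at 0.245 CPM, was above them too, so the level of this transcript does not check the Dux KO label. The Tet1 mean was 2244 CPM in WT, against 272 CPM in Tet TKO samples and 289 CPM in quad KO samples. Tet2 had 432, 337 and 235 CPM and Tet3 54.2, 44.4 and 45.3 CPM in the same order, so transcripts of both were still present. These levels cross the separately scaled tables and were not tested. The 9 ES-cell markers summed to 2455 to 4789 CPM in every sample. The Double KO samples (2455, 3310 and 3813 CPM) and the Dux KO samples (3678 to 4165 CPM) lay below every WT sample (4331 to 4413 CPM). All 9 markers had negative log2 changes in Double KO against WT (median -0.55), of which 0 passed at an adjusted p under 0.05. Counts of different WT samples differed by 1.33 to 2.19 times, and those of Tet TKO samples by 1.44 to 1.70 times, the squared difference that counting alone gives, against 1.59 to 1.89 times for repeat runs of a single WT sample. WT and Tet TKO samples were therefore as alike as repeat runs. The same ratio was 16.4 to 31.7 in Dux KO and 17.5 to 32.3 in Double KO.

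Zfp951 stood at 1.17, 1.41 and 1.51 CPM in the 3 WT samples. The Smchd1 KO samples had 5.55, 14.9 and 2.25 CPM. Every Smchd1 KO sample was above every WT sample, and the highest was 6.60 times the lowest. In the Double KO samples Zfp951 had 6.81, 1.53 and 35.5 CPM, the last from 598 reads. All 3 were above WT, the second by little. In the Dux KO samples it had 15.2, 9.41 and 0.393 CPM. The first 2 of these were above every WT sample and the last was below every WT sample. That low value rests on 6 reads, with a 95% exact Poisson interval of 0.144 to 0.856 CPM, so its gap to the other Dux KO samples is larger than counting error. Such intervals cover counting error only.

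Usp26 stood at 13.4, 13.5 and 14.2 CPM in the WT samples. In the Smchd1 KO samples it had 33.4, 19.3 and 22.3 CPM, all above WT. In the Dux KO samples it had 1.04, 1.24 and 4.13 CPM, from 14, 18 and 63 reads. All 3 were below every WT sample. Of the 16200 genes tested, 39.6% had Dux KO and WT samples that did not overlap, in one direction or the other. Nothing is read from that share because the Dux KO level chose the genes. In the Double KO samples Usp26 had 1.49, 2.75 and 1.19 CPM. These overlapped Dux KO and lay below every WT and Smchd1 KO sample. Double KO and Smchd1 KO samples did not overlap for 29.7% of the genes tested.

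In the other table the levels of both genes were tight. Zfp951 had 11.1, 9.40 and 11.5 CPM in the Tet TKO samples, and 15.8, 17.8 and 20.2 CPM in the quad KO samples. Usp26 had 26.0, 25.2 and 27.2 CPM in the Tet TKO samples, and 6.95, 6.72 and 7.32 CPM in the quad KO samples. The quad KO samples were all above Tet TKO for Zfp951 and all below it for Usp26.

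**Figure D1:**
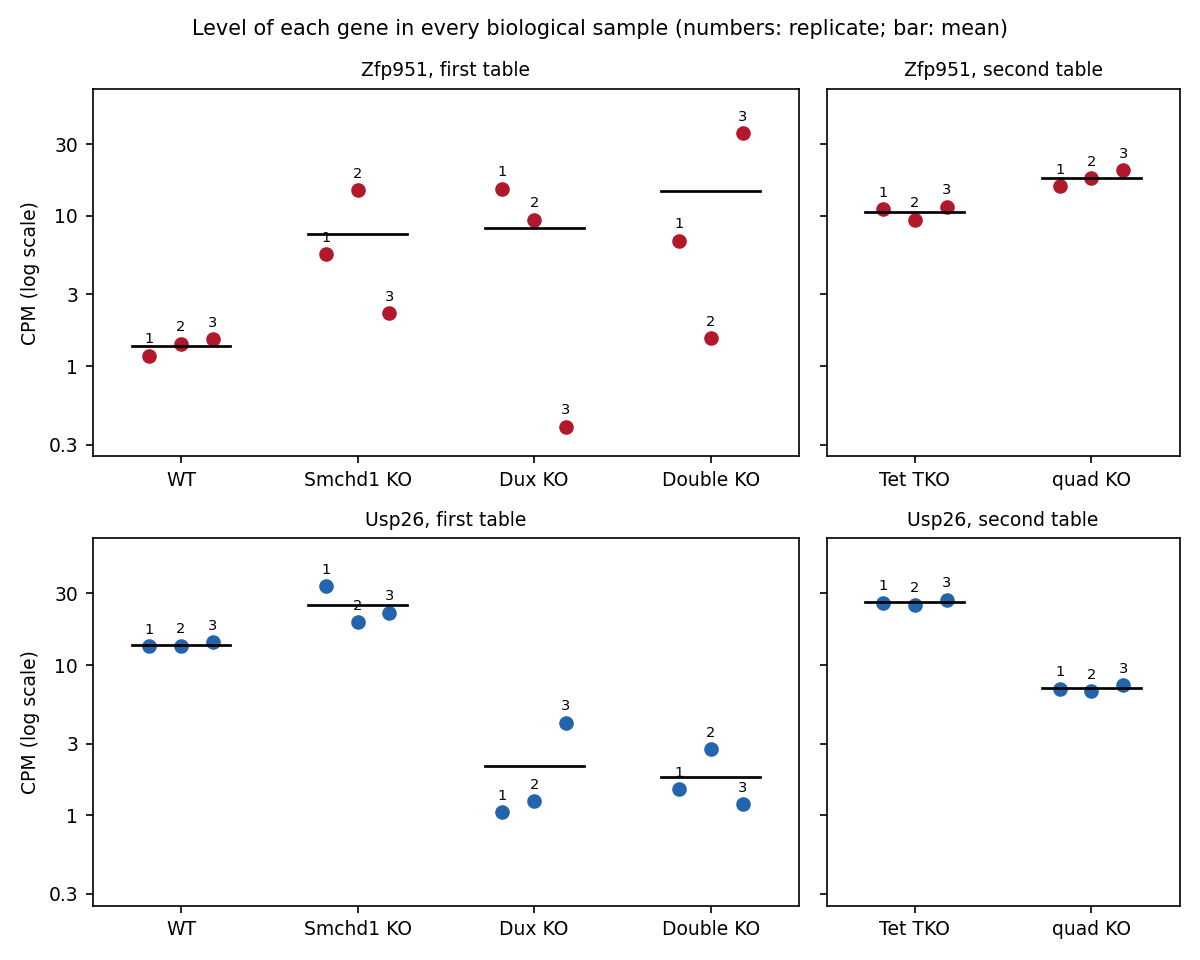
Level of Zfp951 (top) and Usp26 (bottom) in every biological sample, in CPM on a log scale, by genotype; points are samples numbered by replicate, bars are means, and the tables on the left and right were scaled separately. Zfp951 runs from 0.393 to 15.2 CPM within Dux KO and from 1.53 to 35.5 CPM within Double KO, while Usp26 lies at or below 4.13 CPM in both.

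Ordered by mean, Zfp951 was lowest in WT (1.36 ± 0.174 CPM, SD, n = 3 here and throughout), followed by Smchd1 KO (7.55 ± 6.54), Dux KO (8.34 ± 7.47) and Double KO (14.6 ± 18.3). The 3 knockout genotypes overlapped one another, so their order does not exceed their spread. For Usp26 the order was Double KO (1.81 ± 0.831 CPM), Dux KO (2.14 ± 1.73), WT (13.7 ± 0.455) and Smchd1 KO (25.04 ± 7.42), with an overlap between Double KO and Dux KO only.

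The loss of Smchd1 alone was read from Smchd1 KO against WT. The Zfp951 mean was 5.54 times that of WT, and the fitted change, on the scale of log2(CPM + 0.5), was 1.77 with a standard error of 1.099 and a 95% interval of -0.62 to 4.16. It did not pass the threshold of 0.05 (limma, adjusted p = 0.442). The Usp26 mean was 1.83 times that of WT, with a log2 change of 0.81, a standard error of 0.386 and an interval of -0.03 to 1.65, and it did not pass either (adjusted p = 0.319). Both genes had non-overlapping groups in this comparison, as had 57.7% of the 16200 genes tested, while 0.889% of genes passed the threshold (0.648% as higher). With the spread taken from WT and Smchd1 KO alone, both genes passed (adjusted p = 0.0343 for Zfp951 and 0.0106 for Usp26), as did 6852 genes in place of 144.

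Double KO was compared with Smchd1 KO for what the loss of Dux changes in cells without Smchd1. Usp26 fell 11.2-fold on the fitted scale, from 25.04 to 1.81 CPM (log2 change -3.49, standard error 0.386, 95% interval -4.33 to -2.65, limma adjusted p = 0.000336). Lower calls made up 2.98% of genes tested. For Zfp951 the log2 change was 0.35 with an interval of -2.04 to 2.74 and did not pass (adjusted p = 0.866). Its groups overlapped, and the sign rested on single samples: the change was -0.72 without the third Double KO sample and -0.25 without the third Smchd1 KO sample.

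Against WT, Usp26 in Double KO fell 6.398-fold on the fitted scale (log2 change -2.68, standard error 0.386, adjusted p = 0.0101), where 0.889% of genes were called lower. Leaving out any 1 WT sample kept the change between -2.69 and -2.65 but took the call away (adjusted p from 0.0740 to 0.0755). Zfp951 in Double KO had a log2 change of 2.13 against WT, with a standard error of 1.099 and an interval of -0.26 to 4.52, and did not pass (adjusted p = 0.265). Its groups did not overlap, as was so for 36.2% of genes. The gap lay between 1.53 CPM in Double KO replicate 2 and 1.51 CPM in WT replicate 3. The former came from 25 reads, with a 95% exact Poisson interval of 0.989 to 2.26 CPM, so the gap is within counting error. DESeq2 on whole reads recovered from the CPM values gave a log2 change of 3.57 for Zfp951 and passed (adjusted p = 0.0345). The comparisons in the first table share the WT, Smchd1 KO or Double KO samples, so their values are not independent of one another.

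Between Dux KO and WT, as a description, the fitted log2 difference was 1.48 for Zfp951 and -2.62 for Usp26. Between Double KO and Dux KO it was 0.65 for Zfp951 and -0.06 for Usp26.

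quad KO was compared with Tet TKO for the effect of losing Smchd1 in cells without the TET enzymes. Zfp951 rose 1.65-fold on the fitted scale, from 10.7 ± 1.13 to 17.9 ± 2.21 CPM (log2 change 0.72, standard error 0.115, 95% interval 0.45 to 0.99, limma adjusted p = 0.00244). Usp26 fell 3.56-fold, from 26.1 ± 1.02 to 6.996 ± 0.306 CPM (log2 change -1.83, standard error 0.0744, 95% interval -2.00 to -1.66, limma adjusted p = 1.26e-05). Calls were common here: 17.1% of the 14920 genes tested were called higher and 20.6% lower, and 53.3% had groups that did not overlap. Both calls held when each sample was left out in turn. These p-values measure the spread between the samples sequenced. That spread may be technical in Tet TKO, whose samples were as alike as repeat runs. In quad KO it was wider, with counts of different samples differing by 3.82 to 11.1 times the squared difference that counting alone gives.

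**Figure D2:**
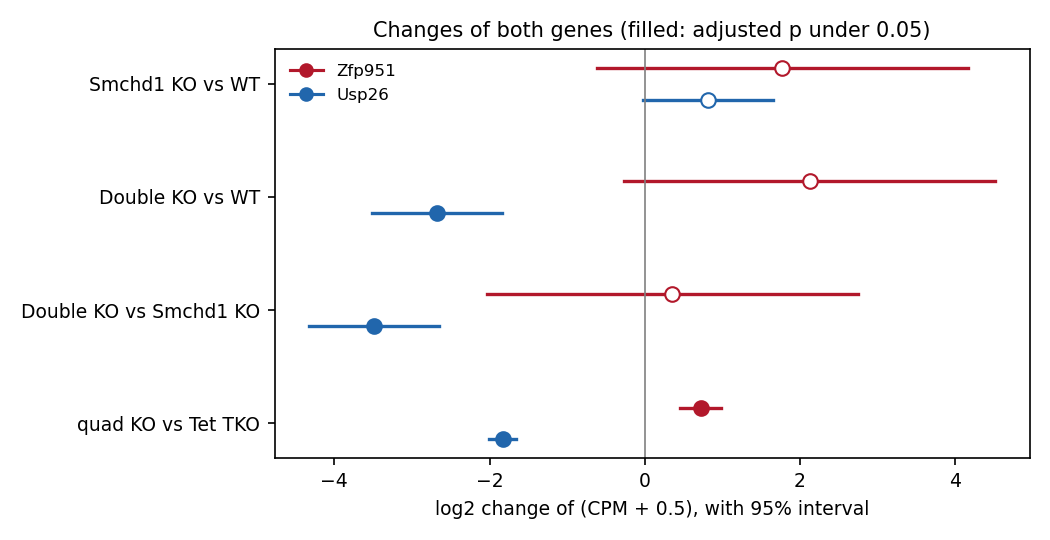
Fitted change of Zfp951 (red) and Usp26 (blue) in the 4 tested comparisons, as the difference in log2(CPM + 0.5) with 95% intervals; filled points passed at an adjusted p under 0.05. The Zfp951 intervals of the first table span 0, and Usp26 lies at -3.49, -2.68 and -1.83 in the 3 comparisons it passed.

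The levels of whole chromosomes and of marker genes were read beside these changes. The median gene of chromosome 5 moved by at most 0.04 on the log2 scale in any sample. Chromosome 6 was lower in Smchd1 KO replicate 2 (-0.455), Dux KO replicates 1 and 2 (-0.165 and -0.411) and Double KO replicate 3 (-0.455). These samples had 14.9, 15.2, 9.41 and 35.5 CPM of Zfp951. In the other Smchd1 KO, Dux KO and Double KO samples chromosome 6 lay at -0.0376 to 0.0154 and Zfp951 at 0.393 to 6.81 CPM. Chromosome 6 was picked from all chromosomes with these values seen, and others moved too. Chromosome 8 was at -0.444 in Dux KO replicate 3 and chromosome 1 at 0.495 in Double KO replicate 3. Chromosome 1 was at 0.119 to 0.146 in the Dux KO samples, and chromosome 12 at -0.187 in Dux KO replicate 1. A link of these shifts to Zfp951 was not tested. The median X-linked gene was lower by 0.21 to 0.24 in the quad KO samples than in Tet TKO (-0.24, -0.21 and -0.21). Chromosomes 6 (-0.21, -0.28 and -0.26) and 8 (-0.18, -0.24 and -0.26) were lower by similar amounts, so the fall was not particular to the X chromosome. With each chromosome's median set to 0 the Usp26 change in quad KO was -1.61. ES-cell markers summed to 3798 to 3912 CPM in the Tet TKO samples and to 3042 to 3171 CPM in the quad KO samples. Of the 9, 6 were called lower in quad KO (20.6% of all genes were). The largest log2 changes were -2.40 for Nanog, -1.92 for Esrrb, -1.74 for Klf4 and -1.34 for Zfp42, factors of the pluripotent state. Usp26 had -1.83. Sox2 (-0.48) and Utf1 (-0.16) were called lower too, while Tdgf1 (-0.13) and Pou5f1 (-0.06) did not pass. The median over the 9 was -0.48. Dppa5a was called higher. Neural markers summed to 47.9 to 51.1 CPM in Tet TKO and to 76.4 to 92.6 CPM in quad KO, and fibroblast markers to 16.4 to 17.1 CPM and to 26.9 to 29.9 CPM, without overlap. Germ-cell markers summed to 81.9 to 85.9 CPM in Tet TKO and to 99.1 to 102 CPM in quad KO, also without overlap. Of these 4 markers, 2 were called higher and 2 lower. Endoderm and trophoblast sums overlapped. Of the 4 endoderm markers tested, 2 were called lower and 1 higher. Of the 3 trophoblast markers tested, 1 was called lower and 1 higher. The part of these shifts in the changes of Zfp951 and Usp26 was not tested. In bulk samples, fewer cells that express a gene and less RNA per cell cannot be told apart.

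The spread of Zfp951 between samples of a genotype was among the widest of any gene. Its pooled standard deviation within genotypes of the first table was 1.64 on the log2 scale, against a median of 0.257, and it ranked 7th of 16200 genes. The genes above it were Gm15564, AC113316.1, n-R5-8s1, Acta2, which encodes a smooth muscle actin, and the imprinted noncoding RNAs Meg3 and Rian. Among 3095 genes of similar mean level, 0.0646% had a spread as wide. The Dux KO samples, whose level chose Zfp951, enter this spread, so its rank is a description. By genotype the standard deviation of Zfp951 was 2.22 in Dux KO, 2.08 in Double KO, 1.24 in Smchd1 KO and 0.138 in WT. Repeat runs of the Smchd1 KO samples gave 4.82 and 6.28 CPM, 15.6 and 14.1 CPM, and 2.03 and 2.47 CPM, with the runs paired because their libraries were alike over all genes, which in part builds in this agreement. In the other table its spread was 0.161, with 31.9% of genes at least as wide. Usp26 had 0.539 in the first table (7.22% of genes at least as wide) and 0.0568 in the second (80.4%).

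**Figure D3:**
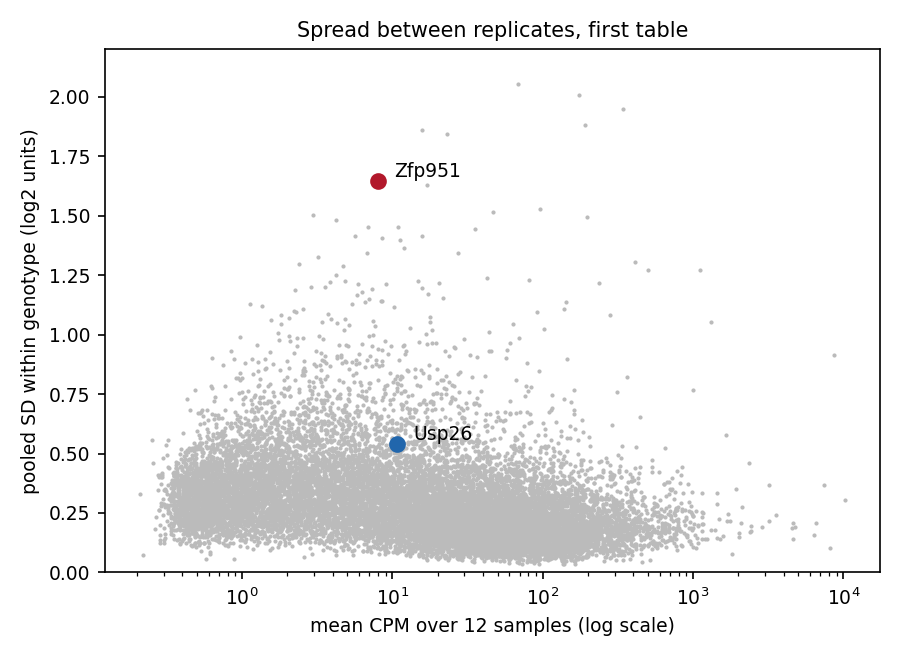
Pooled standard deviation within genotypes, in log2 units, against mean CPM over the 12 samples of the first table (log scale), for each of 16200 genes. Zfp951 lies at 1.64, near the top edge, and Usp26 at 0.539. The Dux KO samples, whose level chose both genes, are included.

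In each of Smchd1 KO, Dux KO and Double KO the sample with the most Zfp951 had the least Usp26: the second Smchd1 KO sample (14.9 and 19.3 CPM), the first Dux KO sample (15.2 and 1.04 CPM) and the third Double KO sample (35.5 and 1.19 CPM). In WT, Tet TKO and quad KO it was the reverse, since the third sample had the most of both genes in each (1.51 and 14.2 CPM, 11.5 and 27.2 CPM, and 20.2 and 7.32 CPM). Endoderm markers (Gata4, Gata6, Sox17, Foxa2, Sox7 and Afp) also varied within these genotypes. Their sum was 38.0, 20.6 and 99.4 CPM in the Smchd1 KO samples, in replicate order. It was 27.3, 14.1 and 71.7 CPM in the Dux KO samples and 91.3, 14.1 and 6.83 CPM in the Double KO samples, against 36.4 to 38.0 CPM in WT. The sample lowest in Zfp951 was the highest in endoderm markers in Smchd1 KO and Dux KO but not in Double KO. Of the 6 endoderm markers, 1 had no reads in Dux KO and none was at 0 in the other genotypes. At most 2 of 6 fibroblast markers and 1 of 3 neural markers were at 0 in any genotype. The sums of the other marker lists ran from 6.39 to 49.8 CPM for fibroblast, 5.67 to 51.9 CPM for trophoblast, 28.5 to 94.1 CPM for neural and 54.1 to 141 CPM for germ-cell markers. Their part in the levels of Zfp951 and Usp26 was not tested.

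Zfp951 and Usp26 were next set beside 50 other entries of a list of 2-cell-stage genes, of which 33 passed the filter in the first table. The list was drawn up with results of these samples known. In Smchd1 KO 30 of the 33 rose against WT, where 0.648% of all genes were called higher. The median log2 change of the 33 was 2.04, against 0.003 for all genes. Among these, Gm5662, an Eif1a-like gene, had a log2 change of 2.87, Gm8994 one of 2.69 and Usp17l5, a deubiquitinase of the Usp17 family, one of 2.65. Of the 33, 12 averaged under 0.5 CPM in each of WT, Dux KO and Double KO and so entered mainly through Smchd1 KO, which favoured both a rise in it and a fall from it. Of the other 21, 18 rose in Smchd1 KO and 18 fell in Double KO against Smchd1 KO. These 21 were set apart by mean level, which does not fully remove that effect of the filter. Zfp352 and Dub1, with WT means of 0.528 ± 0.202 and 0.572 ± 0.169 CPM, are among them. Their means were at most 0.0404 CPM in Dux KO and Double KO, so they too passed only with Smchd1 KO samples. In Double KO 30 of the 33 fell against Smchd1 KO, with a median of -3.08, where 2.98% of all genes were called lower. Usp26 (-3.49) fell as well, while Zfp951 (0.35) did not pass. With many of the 33 at or near 0 reads in Double KO, that median depends on the scale and was -1.54 with a pseudocount of 2, -5.25 with 0.1 and -7.85 with edgeR. Against WT, Double KO had 15 of the 33 lower, with a median of -1.02, where 0.889% of all genes were called lower. That last count ran from 4 to 23 over the other settings and from 2 to 19 when single samples were left out, with 2 without WT replicate 1 or WT replicate 3 and 7 without WT replicate 2. Over all 16200 genes, 2, 8 and 2 were called lower without WT replicate 1, 2 or 3.

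Of the 33, 24 had no reads in any Dux KO sample and 12 had none in any Double KO sample, which allows levels of up to 0.0694 and 0.0608 CPM (3 reads over the group, counting error only). Besides Zfp951 and Usp26, 3 had a Dux KO mean of at least 0.5 CPM. Ddit4l, an inhibitor of mTOR signalling, had a WT mean of 13.3 CPM and a Dux KO mean of 18.5 ± 6.34 CPM. The growth factor gene Fgf1 had 4.69 and 11.2 ± 7.24 CPM, and Slc34a2, a sodium-phosphate cotransporter gene, had 1.42 and 2.499 ± 3.58 CPM. The next entry below that level was Arg2, a mitochondrial arginase gene, with 0.0955 CPM or 21.7% of its WT mean. Usp26, at 15.6% of WT, thus had a lower share of its WT mean than Arg2, from a WT mean of 13.7 CPM against 0.439 CPM for Arg2. These values chose the genes and are given with no test.

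**Figure D4:**
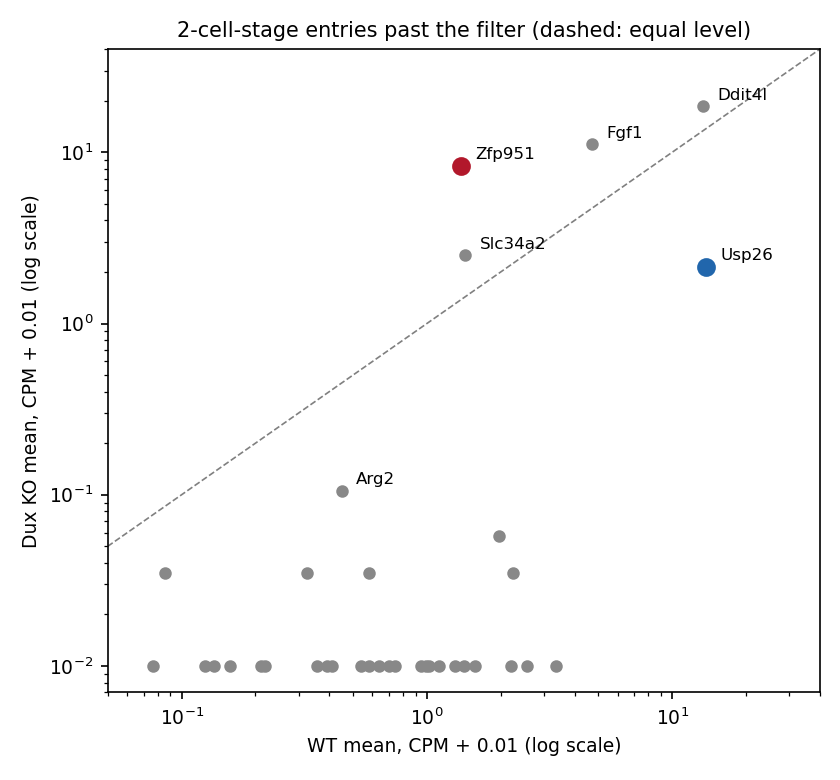
Mean level in Dux KO against mean level in WT for the 35 entries of the 2-cell-stage list that passed the filter, both as CPM + 0.01 on log scales, with equal levels on the dashed line. Zfp951, Ddit4l, Fgf1 and Slc34a2 lie above the line, Usp26 at 15.6% of WT lies below it, and 24 entries lie on the floor with no reads in Dux KO.

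Summed over the 50 other entries, the 2-cell-stage level was 47.1 to 47.6 CPM in the WT samples. It was 277, 291 and 156 CPM in the Smchd1 KO samples. The third Smchd1 KO sample, lowest in this sum, was also the lowest in Zfp951, whereas Usp26 was lowest in the second. The sum was 24.2, 39.0 and 34.7 CPM in the Dux KO samples and 19.2, 20.9 and 26.8 CPM in the Double KO samples. In both genotypes nearly all of the sum came from Ddit4l, Fgf1 and Slc34a2, described above. The other 47 entries summed to 0.671, 0.687 and 0.131 CPM in the Dux KO samples and to 0.804, 1.59 and 1.96 CPM in the Double KO samples, against 26.7 to 29.3 CPM in WT and 238, 241 and 115 CPM in the Smchd1 KO samples.

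Beside Tet TKO and quad KO, 26 of the 50 other entries passed the filter. Against Tet TKO, quad KO had 1 of the 26 lower, where 20.6% of all genes were called lower. This was Gm2016, another Eif1a-like gene (log2 change -0.81, limma adjusted p = 0.0214), and the median change over the 26 was -0.15. Zfp951 (0.72) was thus called higher and Usp26 (-1.83) lower where 25 of the 26 did not pass. The sum over the 50 was 96.0 to 97.6 CPM in the Tet TKO samples and 89.4, 40.2 and 133 CPM in the quad KO samples, which did not differ in Usp26 to that extent (6.72 to 7.32 CPM). Without the third quad KO sample, 8 of the 26 were lower, as were 4008 of all 14920 genes. Without the second the median was 0.15.

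**Figure D5:**
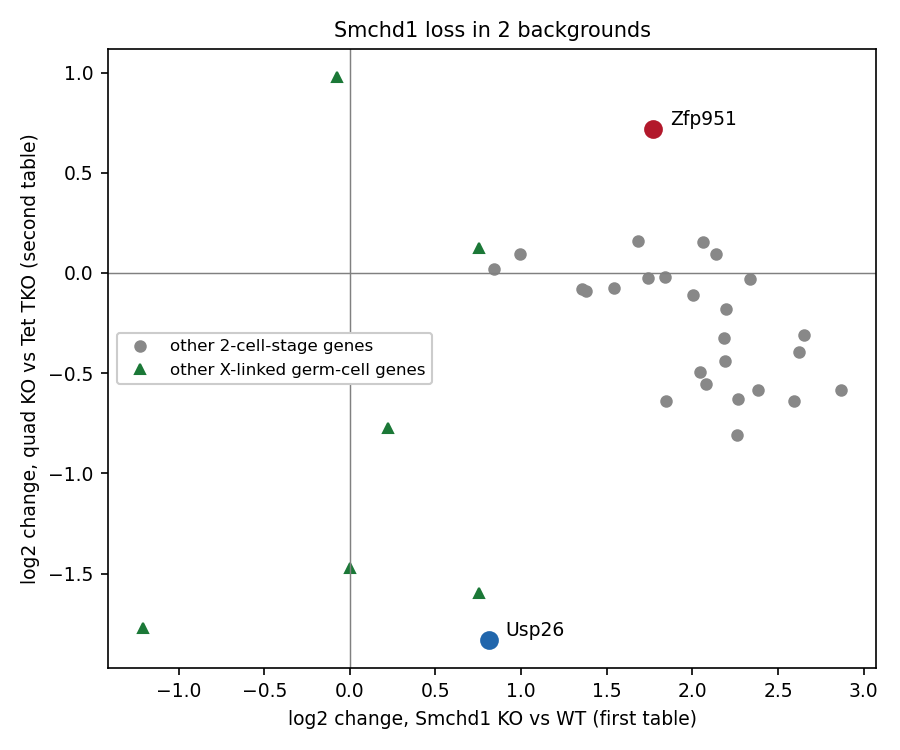
Fitted log2 change of 2-cell-stage genes (grey), X-linked germ-cell genes (green triangles), Zfp951 (red) and Usp26 (blue) on loss of Smchd1, in WT cells on the x axis and in Tet TKO cells on the y axis, each within its own table. Zfp951 lies at 1.77 and 0.72 and Usp26 at 0.81 and -1.83.

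Usp26 was also set beside other X-linked germ-cell genes, of which the list, Usp26 included, had 8 tested beside WT and 7 beside Tet TKO. In quad KO 5 of the 7 fell against Tet TKO, or 4 of the 6 other than Usp26, where 20.6% of all genes were called lower. These were Usp26 (-1.83), Tex13 (-1.77), the homeobox gene Rhox13 (-1.60), the meiotic gene Tex11 (-1.47) and the transketolase-like gene Tktl1 (-0.77). Tex16 rose (0.98), and Taf7l, a germ-cell subunit of a general transcription factor, had 0.13 and did not pass. The median over the 7 was -1.47, against -0.01 for all genes, and 5 of the 7 were called lower whichever sample was left out. In those fits 2016 to 4008 of the 14920 genes were called lower. In Double KO against Smchd1 KO, where 2.98% of all genes were called lower, 2 of the 8 fell, Usp26 and the mRNA export gene Nxf2 (-1.14). That count was 1 without any 1 of the Smchd1 KO samples and 5 without the third Double KO sample. Of the 16200 genes, 87 to 122 and 1483 were called lower in those fits. In Smchd1 KO against WT the adjusted p of the 8 was at least 0.0865 with limma. With the spread taken from WT and Smchd1 KO alone, 4 passed as higher, as did 3331 of the 16200 genes. With DESeq2 2 passed as higher, as did 642 genes, and with a pseudocount of 2 it was 1, where 120 genes did. Usp26 (0.81) and Nxf2 (0.90) had the highest changes of the 8. The close relatives of Usp26 among ubiquitin proteases, Usp29 and Usp37, had changes between -0.57 and 0.15 in the tested comparisons, with adjusted p of at least 0.128.

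A list of 15 germ-cell genes meant to lie off the X chromosome, of which the annotation puts Taf9b on the X, gave 6 higher and 6 lower in quad KO against Tet TKO, with a median of -0.26, where 17.1% of all genes were called higher and 20.6% lower. In Double KO 4 of the 15 fell against Smchd1 KO, where 2.98% of all genes were called lower. Taf9b was the gene of this list that rose in Smchd1 KO against WT (log2 change 1.24, adjusted p = 0.0227).

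Neighbouring genes were read as well, with 10 entries around each gene. Of those around Zfp951, 5 were tested beside WT and 4 beside Tet TKO, and their adjusted p was at least 0.0605 in all tested comparisons. Of those around Usp26, 4 were tested in each table. Gpc3, which encodes a glypican of the cell surface, rose in Smchd1 KO (log2 change 1.02, adjusted p = 0.0115) and fell in Double KO against Smchd1 KO (-0.91, adjusted p = 0.0150). In quad KO both Gpc3 (-0.85) and the glypican gene Gpc4 (-1.46) fell against Tet TKO, where 20.6% of all genes were called lower. In these 3 comparisons Usp26 had 0.81, which did not pass, -3.49 and -1.83. In Double KO against WT, Gpc3 had 0.12 and did not pass, while Usp26 had -2.68.

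The genes most like each in pattern were ranked by Pearson's r of log2(CPM + 0.5), as a description. Over the 12 samples of the first table, Zfp951 was most like Gm13140 (0.93), Gpr116 (0.92), Spic (0.92), Plekhb2 (0.91) and Vmn1r90 (0.91). Usp26 was most like Arl6ip4 (0.99), Mtg1 (0.97), Ctnnbip1 (0.97), Ugp2 (0.97) and Isca2 (0.96). These genes moved over far narrower ranges than Usp26, Arl6ip4 for one between 27.5 and 44.5 CPM. Over the 6 samples of the second table, where 2 groups stand apart and a high r is easily reached, the nearest to Zfp951 were Col9a3, Sbno1, Intu, Prkaa1 and Mtap2, with r from 0.993 to 0.995. Those nearest to Usp26 included Gm650 and Rhox13 on the X chromosome, Tbx3 and 1110002J07Rik, each at 0.999. None of these genes was on the 2-cell-stage list.

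Neither gene overlapped another gene in the GENCODE M21 annotation. Of the 50-base words in Zfp951 transcripts, 1.43% also occurred in some other gene, and of 4084 words in Usp26 transcripts 0 did, so that reads shared with a near-identical copy could touch only a small part of Zfp951.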

How the data were processed

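Per the submitters' processing notes, Trim Galore, STAR 2.5.1, limma 3.38.2 and build mm9 were used. The read counter and annotation release are not given in the sources used here. The authors deposited a normalized signal for each gene, named CPM, with column totals of 906871 to 1054029. Whole reads were recovered from the steps of the deposited signal (every value below 200 reads, 100%, was within 0.1 read of a whole number). The 24 libraries came from 18 samples, since each WT and Smchd1 KO sample had 2 runs, which were averaged. Smchd1 KO columns named no sample, so 3 pairs of runs were formed from their noise ratios (1.36 to 1.69 within pairs, 3.34 to 13.6 between). Beside Tet TKO and quad KO, 3 per-sample columns under the WT name belong to no sample and were not used, so Tet TKO and quad KO were not compared with WT here.

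The filter kept genes that reached 0.5 CPM in 3 or more samples of a table. With limma 3.58.1 in R 4.3.3, log2(CPM + 0.5) of all samples of a table was fitted at once with an intensity trend, two-sided, with Benjamini-Hochberg adjustment over all genes tested and a threshold of 0.05. Alternatives used edgeR 4.0.16 and DESeq2 1.42.0 on recovered reads, with technical runs summed. The fits were tested on simulated data. Chromosomes came from GENCODE M21, which matched 32620 of 37310 identifiers. Promoters came from RefSeq for GRCm38.p6, and no coordinate of the deposited build was used.

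The genes and lists were chosen with earlier results of these data known. Besides Zfp951 and Usp26, the text names the 5 genes most like each in each table (1 of them is not reported here), 2-cell-stage genes with a Dux KO mean of at least 0.5 CPM, the 3 with the largest change in Smchd1 KO, and neighbours past the threshold. Gm2016, Arg2, Taf9b, the ES-cell markers and the X-linked germ-cell genes were named after their values were seen. Where the design calls samples biological replicates, nothing says that they came from separate clones, so p-values measure the spread between these samples.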

Additional observations from a re-analysis of the deposited data

Results flagged for a closer look

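Usp26 had changes of opposite sign on loss of Smchd1 in the 2 backgrounds, of which only that in Tet TKO cells passed. It was higher than every WT sample in each of the 3 Smchd1 KO samples (log2 change 0.81, which did not pass) and lower than every Tet TKO sample in each of the 3 quad KO samples (log2 change -1.83). Groups did not overlap for 57.7% of genes in the first comparison and 53.3% in the second. The difference was not tested, since the tables were scaled separately.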

How the results depend on the processing

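The Usp26 falls in Double KO against Smchd1 KO (-3.77 to -2.82) and in quad KO against Tet TKO (-1.89 to -1.61), and the Zfp951 rise in the latter (0.65 to 0.77), kept direction and call under the other settings run and with each sample left out (-3.76 to -3.26, -1.86 to -1.80 and 0.63 to 0.80). Usp26 in Double KO against WT kept its call under the other settings, but not without any 1 WT sample (leave-one-out -2.95 to -2.48). With 2 genotypes only, the changes in Smchd1 KO were 1.77 for Zfp951 and 0.81 for Usp26 and passed, and leave-one-out gave 1.14 to 2.38 and 0.59 to 0.97. DESeq2 gave 3.57 for Zfp951 in Double KO against WT, with 1.05 to 3.13 on leave-one-out. Zfp951 in Double KO against Smchd1 KO ran from -0.72 to 1.35 on leave-one-out, with -0.25 without the third Smchd1 KO sample. Counts of genes called moved more. For Smchd1 KO against WT, 144 became 71 with a 2 CPM filter, 230 with edgeR, 1082 with DESeq2, 6852 with 2 genotypes only and 51 to 387 on leave-one-out. For Double KO against Smchd1 KO, 709 became 2456 with DESeq2, 121 with 2 genotypes only and 99 to 2428 on leave-one-out, and the share called higher moved from 31.9% to 42.8% with quantile normalization, 48.2% with edgeR and 50.8% with DESeq2. For Double KO against WT, 255 (43.5% higher) became 555 with edgeR (67.2% higher), 2008 with DESeq2 (57.7% higher), 152 with quantile normalization, 508 and 145 with the first or second technical run alone, 406 with chromosome medians centred and 2 to 3006 on leave-one-out. For quad KO against Tet TKO, 5619 became 3541 to 7638. The cause of these changes was not tested. The replicate numbers did not pair the samples (correlations of same-numbered deviations from -0.425 to 0.469). With the number as a block, 148 genes passed in Double KO against WT and no call of Zfp951 or Usp26 changed. Technical-run and single-pair settings were not run for the second table, which has neither repeat runs nor other genotypes.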
